A study of Homo sapiens with 6 samples.

Results

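The 8 genes described here make, interconvert or clear estrogens: CYP19A1, HSD17B1, HSD17B2, HSD17B4, SULT1E1, UGT2B15, CYP1A1 and CYP1B1. Binding of estrogen receptor α (ERα) at them was read from 6 lists of chromatin immunoprecipitation sequencing (ChIP-seq) peaks. A peak was taken when its summit, the base with the most immunoprecipitated DNA fragments, lay inside a gene's span or within 25 kb of it on the human genome build GRCh38 (hg38). The rule found 246 of 690548 peaks. Peaks of different lists that overlapped by at least 1 bp were merged, which gave 56 of 175206 regions.

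The cells were MDA-MB-453, a human breast cancer cell line with androgen receptor and without functional endogenous ERα. Doxycycline turned on an introduced ERα gene, which was Y537S, K303R or wild type (WT) per the labels. Y537S changes the ligand-binding domain so that the receptor is active in the absence of hormone, and the K303R change is in the hinge that joins this domain to the DNA-binding domain. The 6 groups were Y537S with 1 nM estradiol (E2), Y537S without E2, K303R with E2, K303R without E2, WT with E2 and WT without E2. All 6 groups received 2 µg/mL doxycycline for 2 days in medium with 10% fetal bovine serum, which the labels do not describe as hormone-stripped. The groups without E2 may therefore have held serum hormone, and no group lacked the introduced receptor. Each group has 1 library, so the value of a group has no replicate check, and intervals cover counting error only. Expression of the genes was not analysed here, and a region near a gene is not shown to act on it.

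Estrogens are made from androgens by aromatase, the product of CYP19A1. The 17β-hydroxysteroid dehydrogenases then set the balance between the weak estrogen estrone and the potent estradiol: HSD17B1 reduces estrone to estradiol, and HSD17B2 and HSD17B4 oxidise estradiol to estrone. SULT1E1 sulfates estrogens and UGT2B15 attaches glucuronic acid to steroids, chiefly androgens, and both reactions inactivate them. CYP1A1 and CYP1B1, induced through the aryl hydrocarbon receptor, hydroxylate estradiol to catechol estrogens. In breast tumours several of these enzymes control how much active hormone reaches the receptor.

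At CYP19A1 and UGT2B15 a bound region covered the whole promoter window, so their windows are printed here. Each runs from 250 bases before to 50 bases after the start that RefSeq gives (GRCh38.p14), 5′ to 3′ on the strand of the gene. CYP19A1 lies at chr15:51318448-51318747 on the minus strand, and UGT2B15 at chr4:68670603-68670902 on the minus strand. Capitals mark GGTCA on either strand, which is one arm of the palindromic estrogen response element, and TGTTTAC on either strand, a forkhead motif that reads GTAAACA on the opposite strand.
CYP19A1: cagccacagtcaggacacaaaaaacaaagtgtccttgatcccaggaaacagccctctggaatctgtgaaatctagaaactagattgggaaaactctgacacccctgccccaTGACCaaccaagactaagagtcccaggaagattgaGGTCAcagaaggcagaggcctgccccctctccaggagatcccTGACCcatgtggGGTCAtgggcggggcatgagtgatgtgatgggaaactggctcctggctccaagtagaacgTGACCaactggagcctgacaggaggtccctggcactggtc
UGT2B15: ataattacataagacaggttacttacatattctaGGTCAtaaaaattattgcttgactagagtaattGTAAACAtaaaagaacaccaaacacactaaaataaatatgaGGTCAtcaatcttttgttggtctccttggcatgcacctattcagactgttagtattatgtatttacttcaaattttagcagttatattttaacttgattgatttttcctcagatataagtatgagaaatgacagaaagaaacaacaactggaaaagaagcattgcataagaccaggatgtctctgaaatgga

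The CYP19A1 window held 5 copies of GGTCA on either strand, which start at bases 112, 147, 189, 201 and 261 of the printed line. In the 6 libraries the summit lay between bases 115 and 144, next to the first and second of them. Of 35116 promoter windows of this length in the RefSeq table, 33 (0.094%) held at least 5 copies and 37.4% held at least 1. The UGT2B15 window held 2 copies of GGTCA, at bases 35 and 109, and 1 forkhead motif at base 68, with the summits between bases 114 and 140. At least 2 copies of GGTCA were in 9.28% of windows and the forkhead motif in 3.42%. The full estrogen response element, with GGTCA on both strands and 3 bases between, was in 0.057% of windows. It was in none of the 5 windows that could be matched to these genes. The HSD17B4 window held 1 copy of GGTCA. The CYP1A1 window held 1 copy of GCGTG, the core of the aryl hydrocarbon receptor motif (36.5% of windows), and the SULT1E1 window held none of the 4 motifs. Windows of CYP1B1, HSD17B1 and HSD17B2 were not used here. A match of letters is a description and is not a shown site of binding.

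All 8 genes had a bound region in each of the 6 libraries. A region within 25 kb was common, however: 89.7% and 90.8% of 19974 protein-coding genes had one in Y537S with and without E2, 89% and 89.4% in K303R, and 90.1% and 90.7% in WT. The count of 8 of 8 is therefore near what any gene shows. Over the 8 genes there were 39 peaks with E2 and 41 without in Y537S, 41 with and 43 without in K303R, and 41 with and 41 without in WT. The median gene of the 8 had 5.5 regions, against 7 for all protein-coding genes. The strongest region of a gene had a mean over the libraries whose median was 92.5 fragments at the summit for the 8 genes. It was 76.8 for the protein-coding genes that had a region, which leaves out 1265 genes without one.

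**Figure D1:**
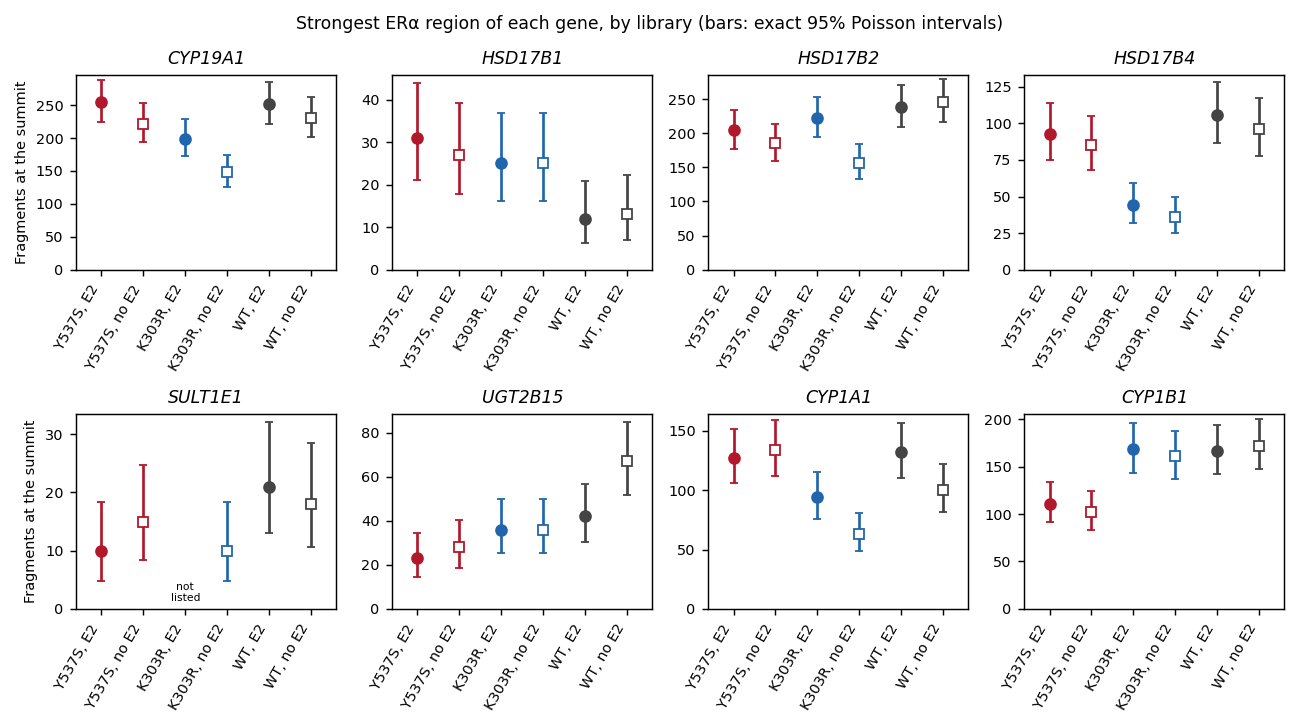
Fragments at the summit (y axis, linear from 0) of the strongest region of each gene in the 6 libraries (x axis), as counted and not scaled between libraries; filled circles are libraries with E2, open squares libraries without E2, and bars exact 95% Poisson intervals. The strongest region of CYP19A1 held 148 to 255 fragments and that of HSD17B1 12 to 31, and the strongest SULT1E1 region was not listed in K303R with E2.

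Fragments at the summit were recovered from each peak's deposited fold and p-value. They are counts and are not scaled for depth. The median over 33626 regions that were in all 6 lists with a mean of at least 50 fragments, called well covered here, was 112 in Y537S with E2 and 99 without. It was 90 in K303R with E2 and 73 without, and 102 in WT with E2 and 100 without. Ratios between libraries below are divided by the ratio of these medians, so a ratio of 1 means the same as the median region. A ratio was called when it was past 1.5-fold in either direction and 1 lay outside its exact counting interval at an error rate of 0.1%; printed intervals are 95%. A call compares 2 libraries and not 2 conditions. Names of the peaks carry a date-like tag that the K303R and WT lists share and the Y537S lists do not. Receptor, cell line and tag cannot be told apart between Y537S and WT, nor receptor and cell line between K303R and WT.

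Of the 56 regions, 29 (51.8%) were in all 6 lists, where 38.7% of all regions were. Another 18 were in 2 to 5 lists and 9 (16.1%) in 1 list, against 21.7% of all regions, and none of these 9 had more than 13 fragments. Of the 56, 28 summits lay inside a gene span and 28 outside. The well-covered ones numbered 17, with 5 at HSD17B2, 4 at HSD17B4, 3 at CYP19A1, 3 at CYP1B1 and 2 at CYP1A1, and none at HSD17B1, SULT1E1 or UGT2B15. The windows searched ran from 52.3 kb at HSD17B1 to 180.5 kb at CYP19A1, and these counts are not scaled for length. Ranks of a gene's strongest region among protein-coding genes are also not matched for window length. At these 17 the summits of the 6 libraries lay within a median of 50 bp of each other, against 52 bp for all well-covered regions, and within at most 112 bp. The 6 libraries thus had their summits at nearly the same bases.

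CYP19A1, the aromatase gene, had the strongest binding of the estrogen-producing enzymes, at 3 well-covered regions on its 5′ side. The gene spans chr15:51208057-51338596 and lies on the minus strand. It is known to use several alternative first exons in different tissues, and distances here are from the 1 start that RefSeq gives. Its 16 regions included 10 with their summit inside the span, and 6 were in all 6 lists. The strongest of them averaged 217.7 fragments, above the strongest region of 90.6% of protein-coding genes.

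That strongest region, chr15:51343297-51344034, had its summit 25144 bp upstream of the start and inside the neighbouring gene GLDN. It held 255 fragments in Y537S with E2 and 222 without, 199 in K303R with E2 and 148 without, and 252 in WT with E2 and 230 without. The lowest counts were those of K303R, whose library median was also lowest, and no ratio was called. Scaled by the lowest local background, the ratio of K303R to WT without E2 was called lower (0.652). A second region, chr15:51334095-51335153, lay 16395 bp upstream of the start but inside the span. It held 243 fragments in Y537S with E2 and 220 without, 172 in K303R with E2 and 136 without, and 216 in WT with E2 and 224 without. Its 7 ratios ran from 0.832 to 1.03, and none was called. Under background scaling its ratio of K303R to WT without E2 was also called lower (0.615).

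The region over the printed promoter window, chr15:51318302-51318995, differed between receptors. Its summit lay 125 bp upstream of the start. It held 223 fragments in Y537S with E2 and 193 without, 132 in K303R with E2 and 106 without, and 135 in WT with E2 and 109 without. Both Y537S libraries stood above the other 4. With E2 the ratio of Y537S to WT was 1.504 (1.21 to 1.88), just past the 1.5-fold limit. Without E2 it was 1.79 (1.41 to 2.28), and both were called. Local background was also higher in Y537S, at 9.37 fragments with E2 and 7.95 without, against 5.74 and 5.06 in WT. The deposited fold over local background was 21.6 with E2 and 21.7 without in Y537S, and 20.2 and 18.1 in WT. The ratio of K303R to WT was 1.11 (0.865 to 1.42) with E2 and 1.33 (1.01 to 1.76) without E2, and neither was called. Around this gene the median Y537S ratio to WT was low, at 0.786 with E2 and 0.798 without over the 73 well-covered regions of a 5 Mb window around it. Centred on those neighbours, the promoter ratios were 1.91 and 2.24.

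A weaker region 10269 bp upstream, chr15:51328375-51328992, went the other way. It held 36 fragments in Y537S with E2 and 29 without, 46 in K303R with E2 and 31 without, and 67 in WT with E2 and 66 without. WT had the highest counts in both treatments. The ratio of Y537S to WT was 0.489 (0.317 to 0.744) with E2 and 0.444 (0.276 to 0.697) without E2, both called. Neither stayed called when centred in the 5 Mb window (0.623 and 0.556) or scaled by the lowest local background (0.555 and 0.538).

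Just above the span, 2 small regions were listed for some receptors. The one at chr15:51338648-51338929, 204 bp above the span, held 61 fragments in Y537S with E2, 60 in Y537S without E2 and 46 in WT with E2, and was in no other list. The one at chr15:51341447-51341734, 75 bp from GLDN, was listed for K303R alone, with 43 fragments with E2 and 29 without. Local background was high at both, 19.0 to 20.5 fragments at the first and 7.08 to 8.96 at the second. A library not listed there may still hold many fragments. The remaining CYP19A1 regions, on the 3′ side of the start or in GLDN, held 8 to 48 fragments where listed.

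**Figure D2:**
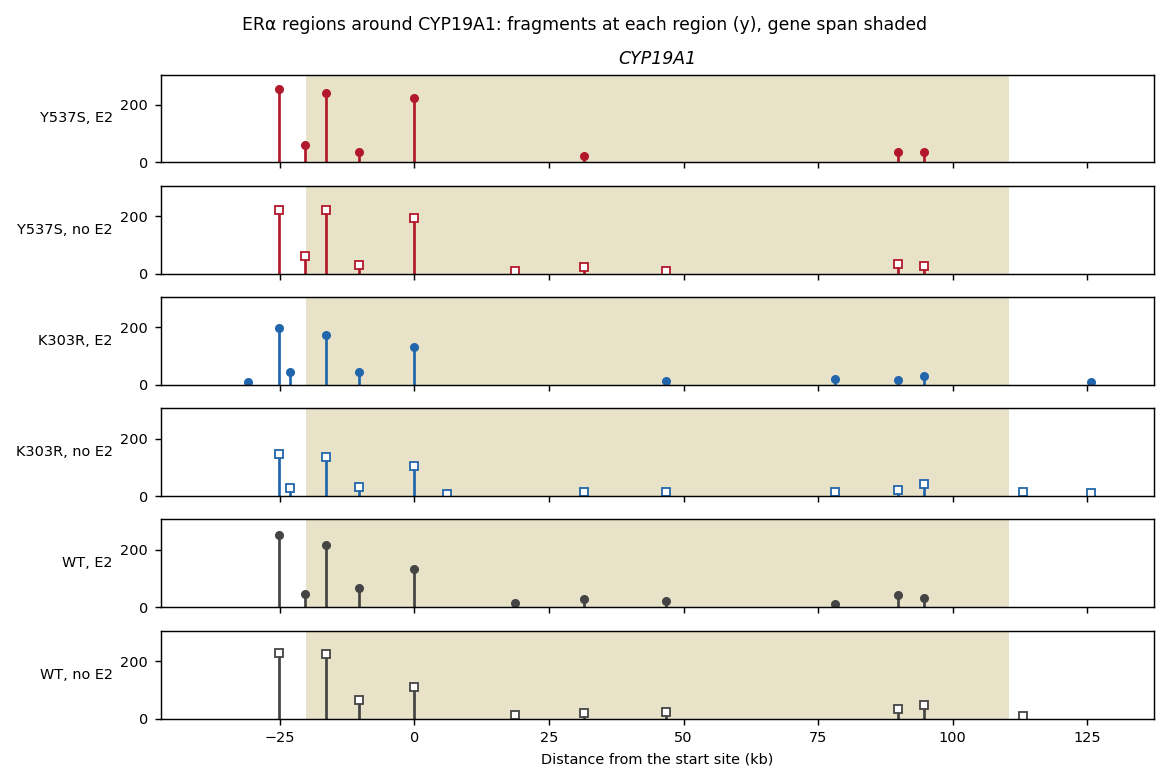
Regions around CYP19A1: the x axis is the distance of the summit from the RefSeq start in kb (negative is upstream), the y axis the fragments at the summit, each row 1 library, and the shaded band the gene span. In each library the tallest lines stand at the start and 16395 and 25144 bp upstream of it, and the line at the start is tallest in the Y537S rows (223 and 193 fragments).

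HSD17B1, which makes estradiol from estrone, was among the most weakly bound of the 8 genes. It spans chr17:42552923-42555214, and its strand is not in the gene table. Only 1 of its 6 regions was in all 6 lists, chr17:42535766-42536451, which lies 16807 bp outside the span and 125 bp from NAGLU. It held 31 fragments in Y537S with E2 and 27 without, 25 in K303R with E2 and 25 without, and 12 in WT with E2 and 13 without. Both mutants stood above both WT libraries. The ratios of mutant to WT were 2.10 to 2.63, each with a 95% interval above 1, but none met the stricter interval needed for a call. Inside the span a region was listed in 2 libraries, with 10 fragments in Y537S with E2 and 8 in K303R with E2. The other 4 regions were in 1 list each, with 7 to 12 fragments.

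HSD17B2, which turns estradiol into estrone, held the most well-covered regions of the 8 genes, counted in a window of 113.3 kb. Its span, chr16:82035253-82098534, and the 25 kb around it contained 13 regions, 7 of them in all 6 lists and 5 well covered. The strongest, chr16:82083753-82084510, lay inside the span. It held 204 fragments in Y537S with E2 and 185 without, 222 in K303R with E2 and 157 without, and 239 in WT with E2 and 246 without. WT had the highest counts, and no ratio was called. The ratio to WT was 0.777 with E2 and 0.760 without in Y537S, and 1.05 with and 0.874 without in K303R. Scaled by the lowest local background, the K303R ratio without E2 was called lower (0.647). Centred in the 5 Mb window that ratio was 0.833 and not called. Without E2 the Y537S ratio to WT was below 1 at all 8 regions listed in both libraries, from 0.418 to 0.985, and with E2 at all 7, from 0.541 to 0.987. None of these was called. Around the gene, the median ratio over the 72 well-covered regions of its 5 Mb window was 0.944 with E2 and 0.967 without.

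The HSD17B2 region with the lowest K303R ratios to WT was chr16:82053681-82054272. It held 88 fragments in Y537S with E2 and 68 without, 24 in K303R with E2 and 24 without, and 109 in WT with E2 and 98 without. The K303R libraries stood below the other 4. The ratio of K303R to WT was 0.250 (0.153 to 0.391) with E2 and 0.335 (0.205 to 0.529) without E2, both called. The neighbour towards lower coordinates, chr16:82049063-82049576, was not well covered and held 22 fragments in K303R with E2 and 17 without, against 36 in WT with E2 and 55 without. Its ratio of K303R to WT was 0.693 (0.388 to 1.21) with E2 and 0.423 (0.230 to 0.741) without. Neither was called, but the value without E2 was called when centred in the 5 Mb window (0.405) or scaled by the lowest local background (0.313). The next 2 regions towards higher coordinates, at chr16:82059754-82060560 and chr16:82071306-82072136, had K303R ratios to WT of 0.983 and 1.13 with E2 and 0.920 and 1.12 without. At the region 7191 bp past the upper end of the span the ratio was 0.741 with E2 and 0.740 without, not called. Under background scaling the value without E2 was called (0.548), and centred in the 5 Mb window it was not (0.705).

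Nearer the lower end of the span, a region was listed for K303R alone. The region chr16:82040318-82040853 held 24 fragments in K303R with E2 and 42 without, and was in none of the Y537S or WT lists. At the next region up, chr16:82041046-82041633, K303R held 16 fragments with E2 and 12 without, and WT 32 with and 29 without (ratio of K303R to WT 0.567 in each treatment, not called).

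HSD17B4 encodes a peroxisomal enzyme that oxidises estradiol and also takes part in the breakdown of fatty acids. The gene spans chr5:119452497-119542332 on the plus strand, and all 7 of its regions were in all 6 lists. Its strongest region, chr5:119564062-119565372, lay 22613 bp past the 3′ end. It held 93 fragments in Y537S with E2 and 85 without, 44 in K303R with E2 and 36 without, and 106 in WT with E2 and 96 without. K303R was lowest in both treatments. The ratio of K303R to WT was 0.470 (0.323 to 0.675) with E2 and 0.514 (0.340 to 0.761) without, both called. Other regions of the neighbourhood were low in K303R too: the median ratio over the 35 well-covered regions of its 5 Mb window was 0.775 with E2 and 0.697 without, against 0.968 and 0.974 over all of chromosome 5. Centred on the neighbourhood, the ratios of the strongest region were 0.607 and 0.738 and neither was called. Scaled by the lowest local background they were 0.428 and 0.380, and both were called. Without E2 all 7 HSD17B4 regions were below 1 in K303R over WT, from 0.514 to 0.856, and with E2 5 of 7 were.

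The region at the HSD17B4 start, chr5:119452485-119453294, had its summit 391 bp downstream of the start and overlapped the last 62 bases of the promoter window. It held 48 fragments in Y537S with E2 and 56 without, 26 in K303R with E2 and 26 without, and 56 in WT with E2 and 43 without. K303R was again lowest in counts, which are not scaled for depth. The ratio of K303R to WT was 0.526 (0.317 to 0.852) with E2 and 0.828 (0.489 to 1.38) without, neither called. Centred in the 5 Mb window these ratios were 0.679 and 1.19. The region was flanked by others 2542 bp upstream and 1859 bp downstream, with 24 to 77 and 50 to 89 fragments.

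**Figure D3:**
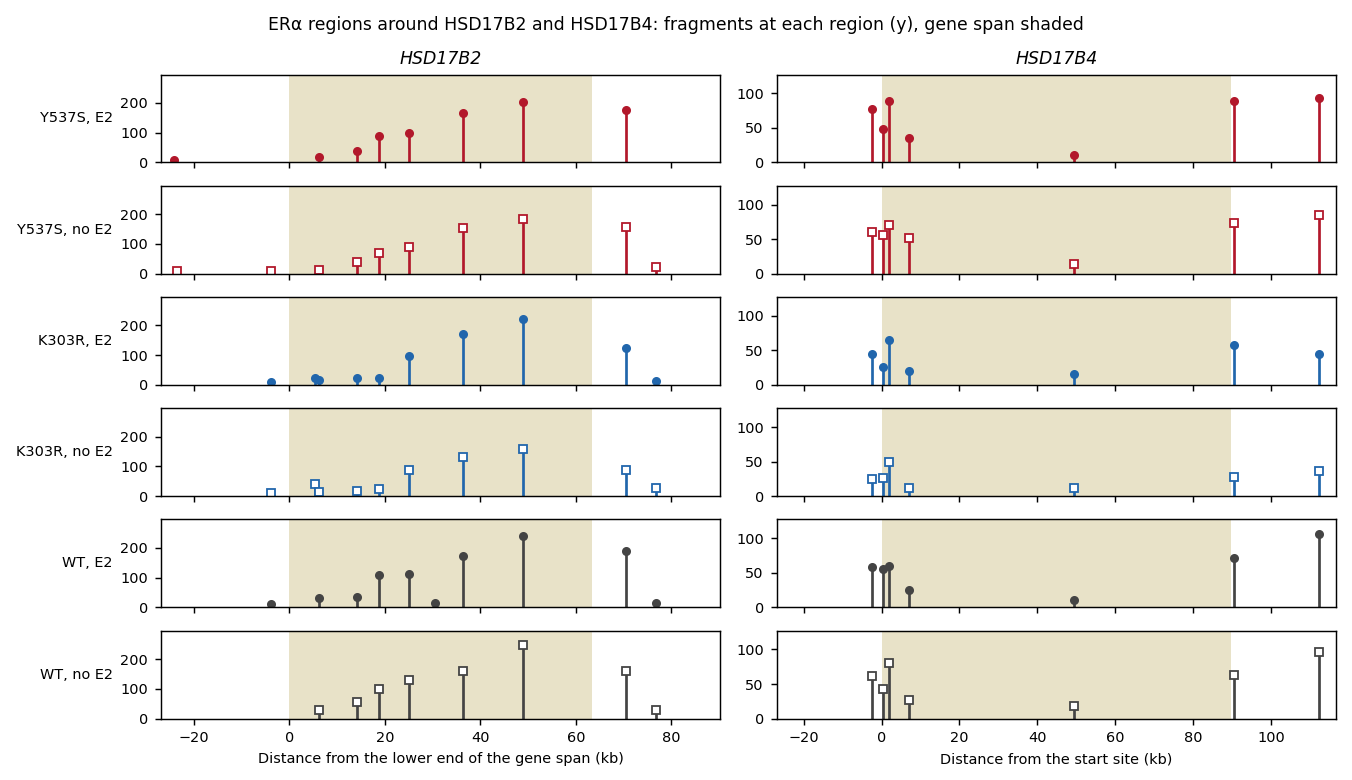
Regions around HSD17B2 (left) and HSD17B4 (right): the x axis is the distance of the summit in kb from the lower end of the HSD17B2 span, whose strand is not in the gene table, or from the HSD17B4 start, the y axis the fragments at the summit, each row 1 library, and the shaded band the gene span. The HSD17B2 line at 18.7 kb is short in both K303R rows (24 fragments in each) and tall in the other rows (68 to 109).

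SULT1E1, the estrogen sulfotransferase, had the weakest binding of the 8 genes. None of its 4 regions around chr4:69821122-69860145 was in all 6 lists, and its strongest region averaged 14.8 fragments, above the strongest of only 14.2% of protein-coding genes. That region, chr4:69836225-69836746 inside the span, held 10 fragments in Y537S with E2 and 15 without, 10 in K303R without E2, and 21 in WT with E2 and 18 without, and was not listed in K303R with E2. WT was highest, on counts too low for a call. The region nearest the start, chr4:69858623-69859435, 1301 bp downstream of it, was in 2 lists, with 10 fragments in K303R with E2 and 19 in WT without E2.

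UGT2B15 had 2 regions, both in all 6 lists and neither well covered. The gene spans chr4:68646597-68670652 on the minus strand and has near-identical relatives in the same cluster, among which short reads may be placed wrongly, so its counts are uncertain. The region over the printed promoter window, chr4:68670544-68670990, had its summit 120 bp upstream of the start. It held 40 fragments in Y537S with E2 and 32 without, 47 in K303R with E2 and 33 without, and 36 in WT with E2 and 31 without. In each receptor the library with E2 had more fragments, but the ratios of E2 to no E2 were 1.10 in Y537S, 1.16 in K303R and 1.14 in WT, with intervals that all held 1. The other region, chr4:68688138-68688711, 17742 bp upstream, was the stronger in WT. It held 23 fragments in Y537S with E2 and 28 without, 36 in K303R with E2 and 36 without, and 42 in WT with E2 and 67 without. The Y537S ratio to WT was called without E2 (0.422, 0.261 to 0.665) and not with E2 (0.499, 0.286 to 0.848). The ratio without E2 was no longer called when centred in the 5 Mb window (0.520) or scaled by the lowest local background (0.512).

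CYP1A1 had 3 regions, all in all 6 lists, around chr15:74719542-74725528 on the minus strand. The strongest, chr15:74725823-74726509, had its summit 503 bp upstream of the start and just missed the promoter window. It held 127 fragments in Y537S with E2 and 134 without, 94 in K303R with E2 and 63 without, and 132 in WT with E2 and 100 without. The count was higher with E2 in WT and K303R and slightly lower in Y537S, with ratios to no E2 of 1.29 (0.990 to 1.7) in WT, 1.21 (0.870 to 1.69) in K303R and 0.838 (0.652 to 1.08) in Y537S. None was called, and the differences between these ratios were not tested. Centred in its 5 Mb window, and also under background scaling, its Y537S ratio to WT without E2 became a call (1.67 and 1.64, against 1.35 as centred here). A region inside CYP1A1, chr15:74722272-74723116, held 74 fragments in Y537S with E2 and 56 without, 33 in K303R with E2 and 14 without, and 54 in WT with E2 and 41 without. K303R without E2 was lowest there, at 0.468 (0.236 to 0.876) of WT, not called. Under background scaling that ratio was 0.346 and was called, and centred in the 5 Mb window it was 0.580 and not called. The ratio of E2 to no E2 at this region in K303R was 1.91 (0.996 to 3.87), not called.

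The third CYP1A1 region, chr15:74749807-74750497, lay 24693 bp upstream, inside CYP1A2, a related hepatic enzyme that also hydroxylates estradiol. It held 96 fragments in Y537S with E2 and 78 without, 48 in K303R with E2 and 40 without, and 103 in WT with E2 and 82 without. The K303R counts were lowest. The ratio of K303R to WT was called with E2 (0.528, 0.367 to 0.751) and not without (0.668, 0.446 to 0.987). Centred in its 5 Mb window the E2 value was 0.670 and not called. Scaled by the lowest local background, the ratio was called with E2 (0.481) and without (0.494). This region was close to the 25 kb limit. Its farthest summit lay 24727 bp from the span with 96 fragments, and the next peak, 27009 bp away with 107 fragments, fell outside.

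CYP1B1, which forms genotoxic catechol estrogens in breast tissue, had 5 regions around chr2:38067509-38076151, 3 of them well covered. The strongest, chr2:38075632-38076913, had its summit 118 bp past the upper end of the span. It held 111 fragments in Y537S with E2 and 102 without, 168 in K303R with E2 and 161 without, and 166 in WT with E2 and 172 without. Y537S stood below the other 4 libraries. The ratio of Y537S to WT was 0.609 (0.475 to 0.779) with E2 and 0.599 (0.464 to 0.770) without, both called. Scaled by the lowest local background they were 0.691 and 0.726 and not called. Centred in the 5 Mb window they were 0.663, still called, and 0.680, not called. Beside it, a region at chr2:38077539-38077771 was listed for Y537S alone, with 36 fragments with E2 and 29 without. Its local background was 8.59 fragments with E2 and 7.38 without, so a library not listed there may still hold fragments.

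The region inside CYP1B1, chr2:38070799-38071430, held 150 fragments in Y537S with E2 and 115 without, 113 in K303R with E2 and 91 without, and 108 in WT with E2 and 112 without. Y537S with E2 was highest, and no ratio was called. A region 20246 bp past the upper end, chr2:38096146-38096775, held 64 fragments in Y537S with E2 and 53 without, 96 in K303R with E2 and 62 without, and 40 in WT with E2 and 69 without. K303R with E2 was highest and WT with E2 lowest. The ratio of K303R to WT was 2.72 (1.86 to 4.04) with E2, called, and 1.23 (0.859 to 1.76) without E2, not called. The ratio of E2 to no E2 was 1.26 (0.903 to 1.76) in K303R and 0.568 (0.375 to 0.851) in WT, neither called. A test of the difference between these 2 ratios was not made.

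**Figure D4:**
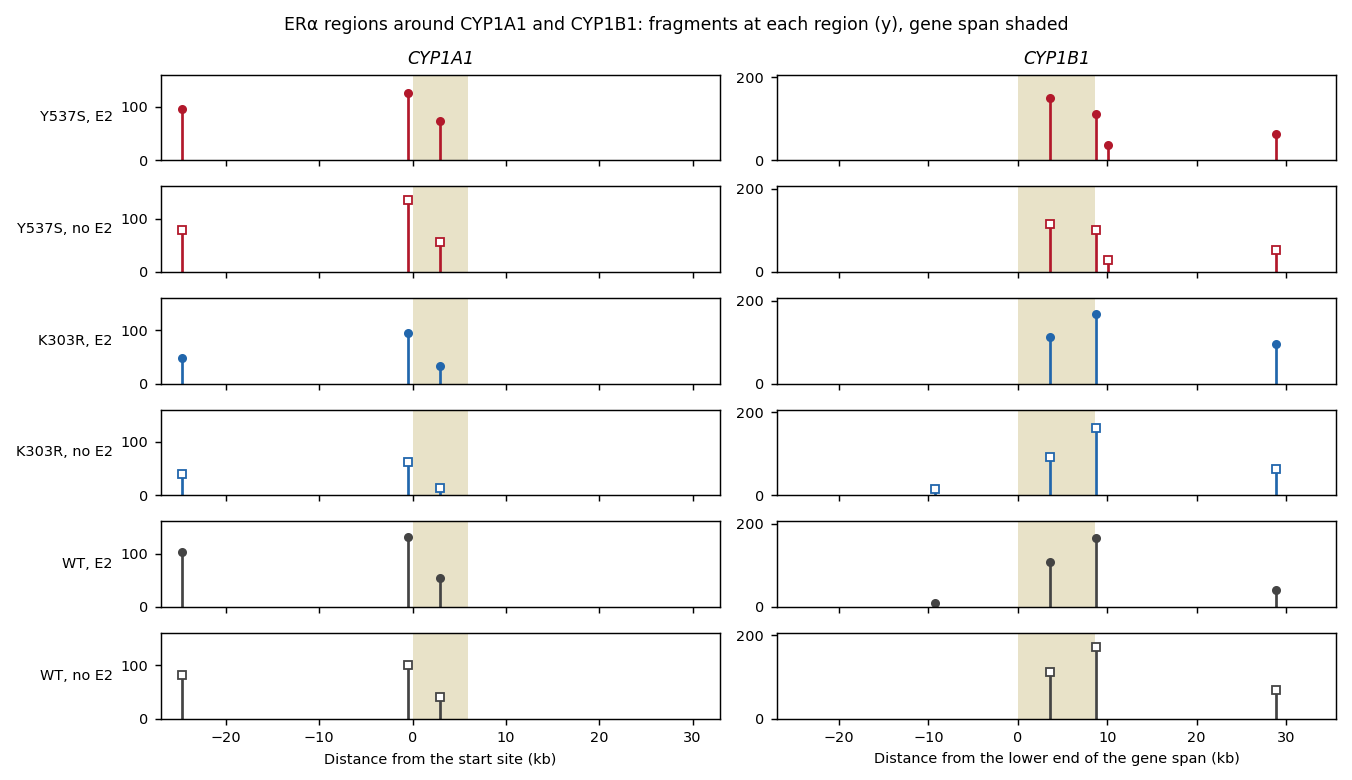
Regions around CYP1A1 (left) and CYP1B1 (right): the x axis is the distance of the summit in kb from the CYP1A1 start (negative is upstream) or from the lower end of the CYP1B1 span, whose strand is not in the gene table, the y axis the fragments at the summit, each row 1 library, and the shaded band the gene span. The CYP1B1 line next to the upper end of the span is lower in the Y537S rows (111 and 102 fragments) than in the other rows (161 to 172).

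With E2 set against no E2, no member region was called in any receptor. The calls over the 17 well-covered regions were 0 higher and 0 lower in Y537S, in K303R and in WT. Calls were rare over all well-covered regions too: 0.0862% higher and 0.0833% lower in Y537S, 2.05% higher and 1.05% lower in K303R, and 1.55% higher and 0.684% lower in WT. With 17 regions, a count of 0 is near this background. The ratios of E2 to no E2 ran from 0.838 to 1.15 in Y537S, from 0.811 to 1.65 in K303R and from 0.568 to 1.29 in WT. The median log2 ratio was 0.02 in Y537S, 0.08 in K303R and 0.08 in WT, against −0.01, −0.03 and −0.01 over all well-covered regions. With the 3 receptors taken as pairs, limma on the log2 fragments with the receptor as a block called 0 of the 17 regions (Benjamini-Hochberg adjusted p over 33626 regions, 2 residual degrees of freedom), against a share of 0.538% over all well-covered regions. The smallest adjusted p among the 17 was 0.485, at the region 682 bp past the 3′ end of HSD17B4. Its mean log2 difference was 0.32 (95% interval −0.09 to 0.73). Of the 17, 0 had an unadjusted limma p under 0.05, against 14.6% of all well-covered regions. This fit treats 3 different receptors as replicates of the E2 effect. Among the 17, the highest single ratio was also at that region, chr5:119542661-119543237. It held 57 fragments with E2 and 28 without in K303R (1.65, 1.03 to 2.70), and scaled by the lowest local background it was called (2.17). With the same scaling the strongest HSD17B2 region was also called in K303R (1.51).

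Between receptors, 2 to 4 of the 17 regions were called in each comparison. In Y537S over WT, 1 of 17 was higher and 1 lower with E2, where the shares over all well-covered regions were 6.06% and 8.59%. Without E2, 1 was higher and 1 lower, where 8.05% and 9.15% were called. The same regions were called in both treatments, CYP19A1 at its start and CYP1B1 at the upper end of its span. In K303R over WT, 1 of 17 was higher and 3 lower with E2, where the shares over all well-covered regions were 6.33% and 7.89%. Without E2, 0 were higher and 2 lower, where 5.49% and 5.86% were called. Scaled by the lowest local background, 9 of the 17 were lower in K303R without E2, against a share of 22.7% over all well-covered regions. The HSD17B2 and HSD17B4 regions were low in both treatments. The median log2 ratio of K303R to WT was −0.14 with E2 and −0.21 without over the 17, against 0.05 and 0.04 over all well-covered regions. For Y537S the medians were −0.19 with E2 and −0.04 without, against −0.06 and −0.06. Regions of the same gene share a neighbourhood and are not independent. In the 5 Mb windows, the median ratio of K303R to WT was 0.775 with E2 and 0.697 without at HSD17B4. It was 0.779 and 0.806 at CYP1A1, and 0.859 and 0.881 at CYP19A1. At HSD17B2 it was 1.02 and 1.04, and at CYP1B1 1.05 and 1.10. The comparisons of both mutants with WT share the WT libraries.

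**Figure D5:**
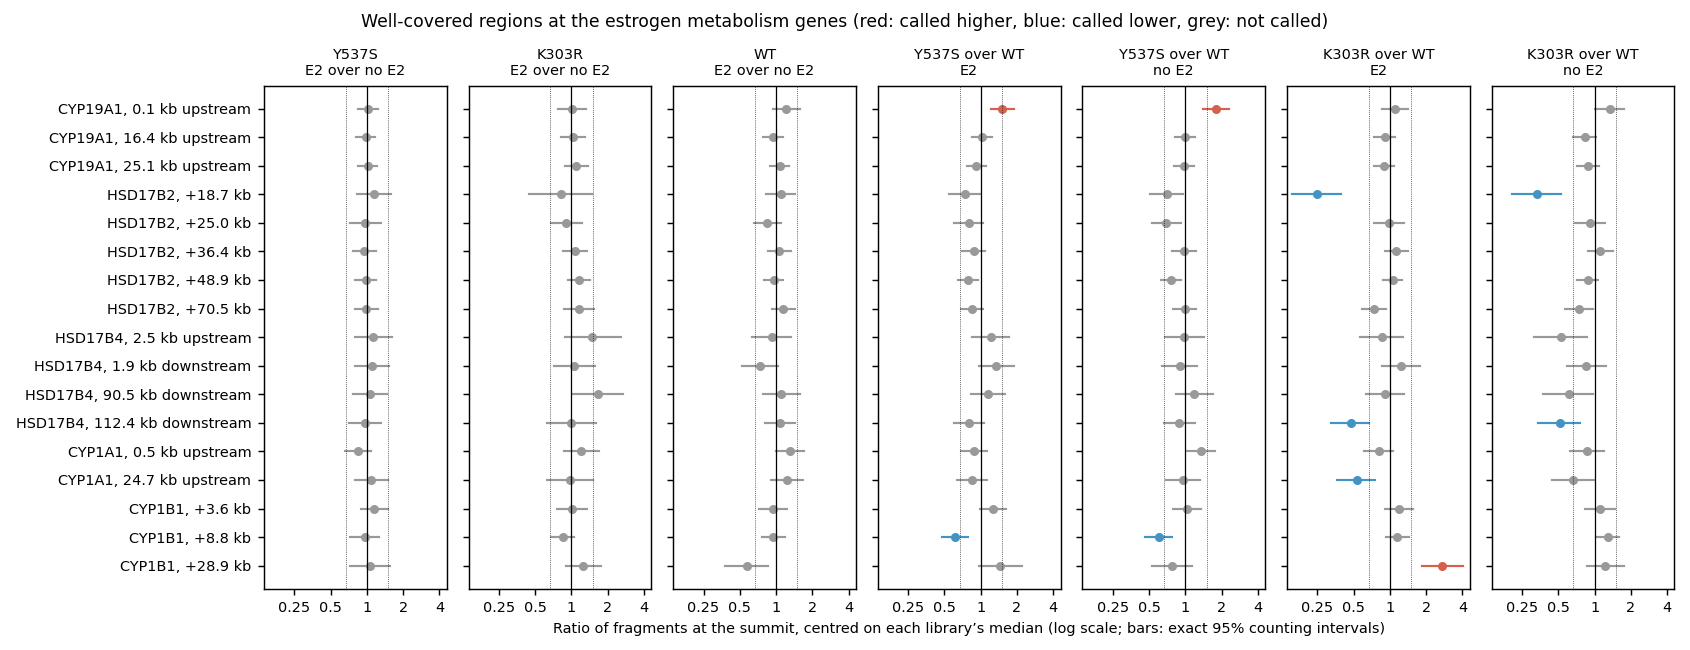
Ratios of summit fragments at the 17 well-covered regions (rows, named by gene and by the distance of the summit from the start or, marked +, from the lower end of the span) in the 7 comparisons (panels), relative to the median region; the x axis is a log scale, bars are exact 95% counting intervals, dotted lines mark 1.5-fold, and red and blue mark regions called higher and lower. No region is coloured in the 3 E2 panels, and HSD17B2 at 18.7 kb is lowest in both K303R panels (0.250 and 0.335).

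Other enzymes and transporters of steroid synthesis and clearance were examined as a list. It had 68 genes, all of them matched, with 470 regions. Some of these regions are shared with the 8 genes. The strongest region of CYP1A2 was the CYP1A1 region chr15:74725823-74726509, and the CYP1A1 region inside CYP1A2 belongs to both sets too. Of these genes 5 had no region (STAR, UGT1A1, UGT1A3, UGT2B10 and CYP2C19), and 32 had at least 1 of 90 well-covered regions. Over the listed genes that had a region, the median of the mean at the strongest region was 51.3 fragments, against 92.5 for the 8 genes above. The strongest averaged 245 fragments at the organic anion transporter gene SLCO4A1, 214 at the sulfotransferase gene SULT2B1 (a region inside FAM83E) and 207.8 at the retinol and steroid dehydrogenase gene DHRS9. Next came the efflux transporter gene ABCG2 with 198.5, the 5α-reductase gene SRD5A2 with 186.3 and UGDH, which supplies UDP-glucuronic acid, with 183.8.

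With E2, 0 of the 90 well-covered regions were called in Y537S, 3 were higher (3.33%) and 0 lower in K303R, and 1 was higher (1.11%) and 2 lower (2.22%) in WT. The shares over all well-covered regions were 2.05% higher and 1.05% lower in K303R and 1.55% and 0.684% in WT. In K303R a SULT2B1 region at chr19:48606358-48607249 held 85 fragments with E2 and 16 without (4.31, 2.51 to 7.88). A region of SLCO2B1, an estrone sulfate importer, held 85 with E2 and 25 without (2.76, 1.75 to 4.50). One of POR, the electron donor of the steroid P450 enzymes including aromatase, held 117 with E2 and 43 without (2.21, 1.54 to 3.21). In WT an SRD5A2 region held 72 with E2 and 34 without (2.08, 1.36 to 3.22). A region of the cytochrome b5 gene CYB5A held 49 with E2 and 87 without in WT (0.552).

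Between receptors, Y537S was above WT at 2 of the 90 (2.22%) and below at 12 (13.3%) with E2, where all well-covered regions gave 6.06% and 8.59%. Without E2 it was above at 5 (5.56%) and below at 6 (6.67%), where they gave 8.05% and 9.15%. K303R was above WT at 4 (4.44%) and below at 5 (5.56%) with E2, and above at 3 (3.33%) and below at 4 (4.44%) without, against 6.33% and 7.89%, and 5.49% and 5.86%. The median log2 ratio of K303R to WT over the 90 was 0.10 with E2 and 0.02 without. A CYB5A region at chr18:74247093-74247526 held 168 fragments in Y537S and 65 in WT with E2, and 183 in Y537S and 65 in WT without E2 (2.35 and 2.84). With E2, a POR region held 168 in Y537S and 60 in WT (2.55), and a region of the transporter gene SLCO3A1 47 in Y537S and 117 in WT (0.366). Without E2, a region of AHRR, the repressor of the aryl hydrocarbon receptor, held 67 in Y537S and 26 in WT (2.60). One of UGT2B17, a near-identical relative of UGT2B15, held 33 in Y537S and 92 in WT (0.362).

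In K303R with E2, a CYP1A2 region held 43 fragments against 109 in WT (0.447), and an AHRR region 93 against 49 in WT (2.15). Without E2, a UGT2B4 region held 14 fragments in K303R and 69 in WT (0.278), an SRD5A2 region 29 in K303R and 104 in WT (0.382), and a POR region 21 in K303R and 72 in WT (0.400).

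For each gene whose strongest region was in all 6 lists, the gene with the most similar pattern over the 6 libraries was sought among the other members and the pathway list. Likeness was Pearson's r of the centred log2 fragments at the strongest region of each gene, over 6 points that share libraries, and the highest of 51 or 52 values is high by selection. The closest were SLCO2B1 for CYP19A1 (r = 0.94), AHRR for HSD17B1 (0.89), SLCO3A1 for HSD17B2 (0.96) and ABCG2 for HSD17B4 (0.96). They were STS for UGT2B15 (0.95), CYP2A6 for CYP1A1 (0.93) and SLC10A6 for CYP1B1 (0.996). A high r does not mean differences of like size. The centred log2 fragments spanned 1.09 at HSD17B4 and only 0.19 at ABCG2, and 0.29 at CYP19A1 and 0.68 at SLCO2B1. The CYP1B1 region and the SLC10A6 region, the gene of another importer of sulfated steroids, were both lowest in Y537S. SLC10A6 held 9 fragments in Y537S with E2 and 10 without, 40 in K303R with E2 and 55 without, and 37 in WT with E2 and 43 without.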

How the data were processed

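Per the labels' protocols, the antibody D8H8 was used on chromatin of 2 plates, and 2 ng of the DNA went into each library, sequenced as read pairs of 75 bp. Per the submitters' processing notes, Bowtie2, SAMtools, Picard, bedtools and MACS2 were used on hg38; versions, control and peak threshold: not given in the sources used here. Every deposited list gives, per peak and per library, the authors' fold enrichment (a ratio to local background), p-value and q-value as −log10, summit offset and score, of which the score was not used. Read totals are not given, so depth is not known directly.

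The fold (with pseudocount 1) and the Poisson p-value were solved for the fragments at the summit and the local background. This matched the deposited p to within 0.01% for 100% of the 106186 to 125850 peaks per library, which start at 5 or 6 fragments. The procedure was tested on simulated data. Merged regions take the highest summit of each library. Gene spans came from a RefSeq table (GRCh38.p14) without exons or introns, which were not analysed here; starts and strands came from the RefSeq promoter table (5 of the 8 genes). Motifs were searched only in the promoter windows, since no genome was used here, and a plan to search around summits was dropped. Groups came from the sample titles. The members, gene lists and tests were chosen with earlier results of these data known. The text names every member, its strongest region in all libraries, every region called in any comparison and the region nearest the start. From the pathway list it names the 6 genes with the most fragments and up to 3 called regions per comparison, of which 1 gene's are not reported here. Analyses used Python 3.11.15, numpy 2.4.6, pandas 2.3.3 and scipy 1.17.1, and limma 3.58.1 in R 4.3.3. Alternatives were other windows, a −log10 q-value minimum of 10, scaling by the lowest local background, centring in a 5 Mb window around each region, matching summits within 200 bp, and 2-fold. Chosen after seeing the data were centring on the median ratio, the alternatives for the pathway list, summit matching for single counts, and the limma fit with receptors as pairs.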

Additional observations from a re-analysis of the deposited data

How the results depend on the processing

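Without replicates, calls compare single libraries, and the total reads, the control and receptor levels per line are not known. Ratios are relative to the median region; differences that all regions share are removed by the centring. The median region itself had a log2 ratio of K303R to WT of −0.18 with E2 and −0.45 without E2. Regions in all 6 lists with a mean of 50 fragments leave out weak and receptor-specific ones. Pairing by replicate number was not possible, since each group has 1 library; with the receptors as pairs, 0 of 17 regions were called for E2.

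No called ratio changed direction under the alternatives run. With summits inside the gene span only, the peaks were 22 with and 22 without E2 in Y537S, 23 with and 24 without in K303R, and 24 with and 23 without in WT. With 50 kb there were 64 in Y537S without E2, and with a −log10 q-value of at least 10 there were 27 in K303R without E2. Of the 17 well-covered regions, scaled by the lowest local background, 2 were higher with E2 in K303R. In Y537S over WT 0 were lower with E2 under this scaling, and 2 higher and 0 lower without E2. In K303R over WT without E2 9 were lower (12 of all 56 regions), against 22.7% of all well-covered regions. Centred in a 5 Mb window, 2 were higher and 0 lower in Y537S over WT without E2, and 1 was lower in K303R over WT with E2 and 1 without. At 2-fold, 0 of the 17 were higher and 0 lower in Y537S over WT in either treatment, while among the other regions the CYP19A1 one 10269 bp upstream stayed called in both and the UGT2B15 one without E2. K303R over WT had 1 lower without E2. Pathway genes with a called region numbered 3 for E2 in WT, and 1 at 2-fold and 1 centred on the median ratio. For E2 in K303R they numbered 3, and 9 by background scaling. For Y537S over WT with E2 they numbered 9, and 5 in the 5 Mb window. For K303R over WT without E2 they numbered 6, and 10 by background scaling and 3 at 2-fold; with E2 they numbered 6, and 3 in the 5 Mb window. The cause was not tested. Apart from the 22.7% above, no share over all well-covered regions was computed under an alternative. Whether the other changes in count concern these genes or all regions was therefore not tested. Matching summits within 200 bp moved none of 68 main values or counts beyond its counting interval or by over 1.5 times. Counts of 5 or 6 fragments are the lowest listed, and where the local background is high a listed peak needs more. A region not listed may therefore hold fragments and is not shown to be unbound.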
